A study of Homo sapiens with 9 samples.

Results

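The 10 genes described here belong to the pathway that runs through the transcriptional coactivators YAP and TAZ and their DNA-binding partners, the TEAD factors. They were chosen by symbol: YAP1, WWTR1 (which encodes TAZ) and TEAD1, the target genes CTGF, CYR61 and ANKRD1, and the regulators AMOTL1, AMOTL2, AJUBA and LATS2. Each symbol had 1 row among the 48162 genes of the count and FPKM tables, and all 10 were among the 15776 genes tested. The cells were SKMEL28, an established human melanoma line, transduced with lentiviruses carrying short hairpins. The control group (shCont) received a hairpin against GFP, the shp16 group a hairpin against p16 (CDKN2A), and the shp16+shATR group hairpins against both p16 and the kinase ATR. All 3 groups were kept in puromycin at 1 ug/ml for 3 days in medium with 5% serum. Each group held 3 libraries. The labels and methods do not say that they came from separate cultures. The paper describes its mRNA values for lanosterol synthase as 1 experiment with 3 technical replicates. It gives sequencing as its only method for mRNA. The p-values therefore measure only the spread between these libraries, which may be technical, and cannot be read as spread between cultures. Which ATR hairpin was used, and whether the shp16 cells also carried a further control virus, was not given for these libraries.

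In the Hippo pathway, the kinases MST1 and MST2 activate LATS1 and LATS2, which phosphorylate YAP and TAZ and hold them in the cytoplasm. Dephosphorylated YAP and TAZ enter the nucleus, bind TEAD factors and switch on genes such as CTGF, CYR61 and ANKRD1, which are widely used as readouts of their activity. The pathway is controlled mostly at the level of protein phosphorylation and location, which RNA levels do not record. Several of its own brakes, LATS2 and AMOTL2 among them, are also TEAD targets. In melanoma cells YAP and TAZ are known for roles in invasion and in the response to targeted therapy.

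TEAD factors bind DNA at a core of the letters GGAATG, or CATTCC on the other strand, often followed by a further T (GGAATGT, or ACATTCC). The promoter windows of CTGF and ANKRD1, the members whose RNA differed most between the groups, are printed because both hold this core more than once. They come from RefSeq (build GRCh38.p14), run 5′ to 3′ on the minus strand from 250 bases before the gene start to 50 bases after it, and carry the matches in capitals. The CTGF window, listed under the newer symbol CCN2, lies at chr6:131951323-131951622, and the ANKRD1 window at chr10:90921038-90921337.
CTGF: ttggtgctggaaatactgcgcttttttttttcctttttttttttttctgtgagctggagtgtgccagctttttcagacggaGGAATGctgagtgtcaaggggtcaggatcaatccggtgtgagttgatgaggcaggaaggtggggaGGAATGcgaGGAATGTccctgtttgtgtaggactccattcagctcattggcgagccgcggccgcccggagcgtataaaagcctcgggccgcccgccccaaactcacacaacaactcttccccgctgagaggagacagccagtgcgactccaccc
ANKRD1: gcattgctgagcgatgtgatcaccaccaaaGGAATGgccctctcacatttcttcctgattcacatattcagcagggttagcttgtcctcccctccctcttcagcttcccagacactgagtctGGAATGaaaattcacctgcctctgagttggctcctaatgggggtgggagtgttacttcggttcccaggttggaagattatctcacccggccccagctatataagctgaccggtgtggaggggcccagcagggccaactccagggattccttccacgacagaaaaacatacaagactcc
The CTGF window held 3 matches, which began at positions -169, -104 and -95 from the start, and the last of them was the longer GGAATGT. The ANKRD1 window held 2 matches, at -220 and -128, and neither was of the longer form. RefSeq windows were found for 8 of the 10 members, 11 windows in all, and 6 of the windows (1 each for CTGF, ANKRD1, YAP1, LATS2, AMOTL2 and AJUBA) held the core on either strand. Of all 35116 promoter windows of 300 bases, 14% held GGAATG on either strand and 3.46% held GGAATGT, which are themselves counted among the former. The windows of WWTR1 and AMOTL1 held neither. A match of letters is a description of the sequence and does not show that a TEAD factor binds there.

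The libraries held 17314662 to 23588174 counted reads. CPM values are counts scaled to a common library size with edgeR's TMM factors, and a gene is called here when edgeR's quasi-likelihood test gave a Benjamini-Hochberg adjusted p under 0.05 over all tested genes. CDKN2A lay at 103 to 162 CPM in shCont and at 78.1 to 99.9 CPM in shp16 without reaching the threshold (log2 fold change -0.48, adjusted p = 0.0723), while ATR fell from shp16 to shp16+shATR (log2 fold change -1.12, adjusted p = 0.0128). The 162 CPM were those of shCont replicate 1. Without that library the log2 fold change of CDKN2A in shp16 was -0.26 (edgeR's quasi-likelihood test, adjusted p = 0.0681). In shp16+shATR, CDKN2A was called lower than in shCont (log2 fold change -0.57, edgeR's quasi-likelihood test, adjusted p = 0.0263). That call held without shCont replicate 1 (-0.35, adjusted p = 0.0154). All 10 melanocyte markers looked at were tested, and their summed level was 13775 to 15441 CPM in shCont, 8172 to 13389 in shp16 and 11359 to 13445 in shp16+shATR. PMEL was the largest part of this sum, at 3258 to 10029 CPM over the 9 libraries, and the next, DCT, had 1317 to 2017. Of 5 keratinocyte markers, 4 were tested, with sums of 1.63 to 2.11 CPM in shCont, where KRT1 and KRT5 had no counts, 8.19 to 17.4 in shp16 and 4.66 to 10.5 in shp16+shATR. Of 6 fibroblast markers, 5 were tested, with sums between 27.8 and 46.8 CPM in all groups, nearly all of it LUM. The part of these shifts in the results was not tested, and in bulk RNA fewer cells of a type cannot be told apart from less RNA per cell.

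shCont replicate 1 stood apart from the other shCont libraries in a way that followed transcript length. Its median log2 ratio to the other shCont libraries ran from 0.26 for genes of up to 1500 bases to -0.75 for genes of over 9000 bases. The ratio was -1.23 for TEAD1 (9430 bases), beside a median of -0.75 for its length class, and -0.62 for AMOTL1 (8970 bases), beside -0.46. For LATS2 (5511 bases) it was -0.70 and for YAP1 (5386 bases) -0.66, both further from 0 than the median of -0.22 for genes of over 4000 and up to 6000 bases, a class in which AJUBA had 0.16. For the short targets it was 0.34 (ANKRD1), 0.01 (CYR61) and -0.25 (CTGF), beside a median of 0.28 for genes of their length class. Values without shCont replicate 1 are therefore given beside the member results. shp16 replicate 1 also stood apart from its group, with a chi-square per gene of 37.9 and 37.2 against the other shp16 libraries, which had 1.94 between them, beside 68.5 and 83.4 for shCont replicate 1. Its length trend was smaller, from -0.10 for genes of up to 1500 bases to 0.14 for those of over 9000.

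**Figure D1:**
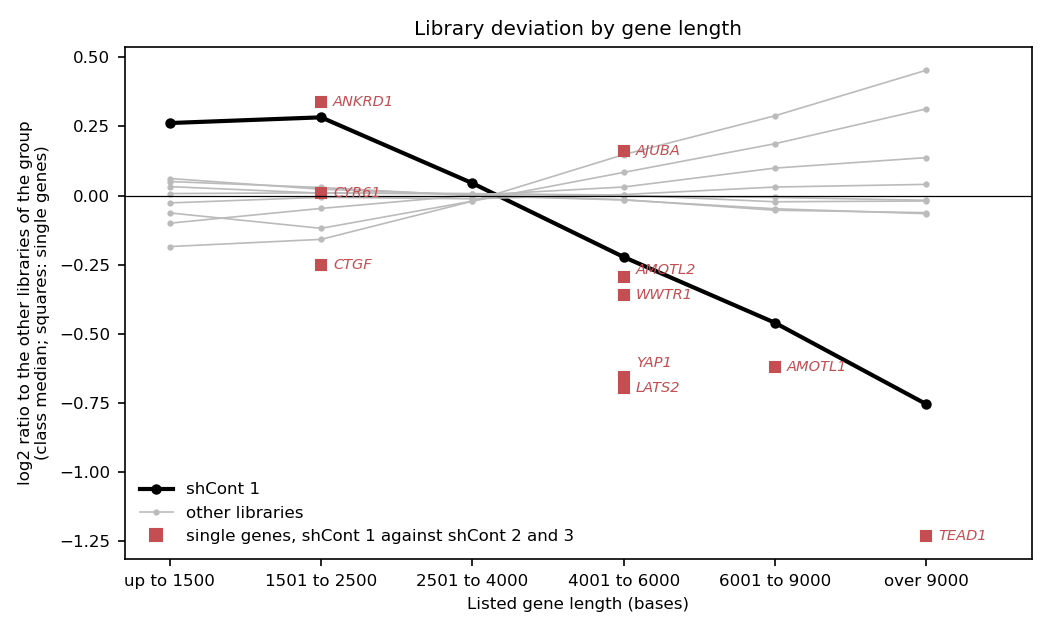
Median log2 ratio of each library to the other libraries of its group (y axis) by the gene length listed in the tables (x axis, 6 classes), with shCont 1 in black and the other 8 libraries in grey; red squares are the 10 genes in shCont 1 against the mean of shCont 2 and 3. The black line falls from 0.26 to -0.75, and TEAD1 lies at -1.23, below the line, while ANKRD1 lies above 0 at 0.34.

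Compared with shCont, shp16 cells had lower RNA of CTGF, ANKRD1 and WWTR1 and higher RNA of LATS2. Thus 4 of the 10 members were called, 1 higher and 3 lower, against 14.8% of all tested genes (7.23% higher and 7.59% lower), and their median log2 fold change was -0.21 against -0.02 for all genes. ANKRD1 passed the filter on low counts through its shCont counts, and of the other 9 members 3 were called. With ATR knocked down in addition, CTGF and WWTR1 rose relative to shp16, so 2 of 10 members were called, both higher, against 6.22% of all genes (2.73% higher and 3.49% lower), with medians of 0.20 and 0.00. Against shCont, shp16+shATR cells had lower CTGF and ANKRD1 and higher LATS2, which is 3 of 10 members against 23.6% of all genes (10.9% higher and 12.7% lower), with medians of -0.01 and -0.02. Of the 9 members other than ANKRD1, 2 were called in each of these last comparisons (22.2%). Without shCont replicate 1 the counts were 5, 3 and 4 of 10, beside 25.9%, 19.9% and 33.3% of all genes. The comparisons share libraries: a low value in shp16 enters both the fall from shCont and the rise with shATR.

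**Figure D2:**
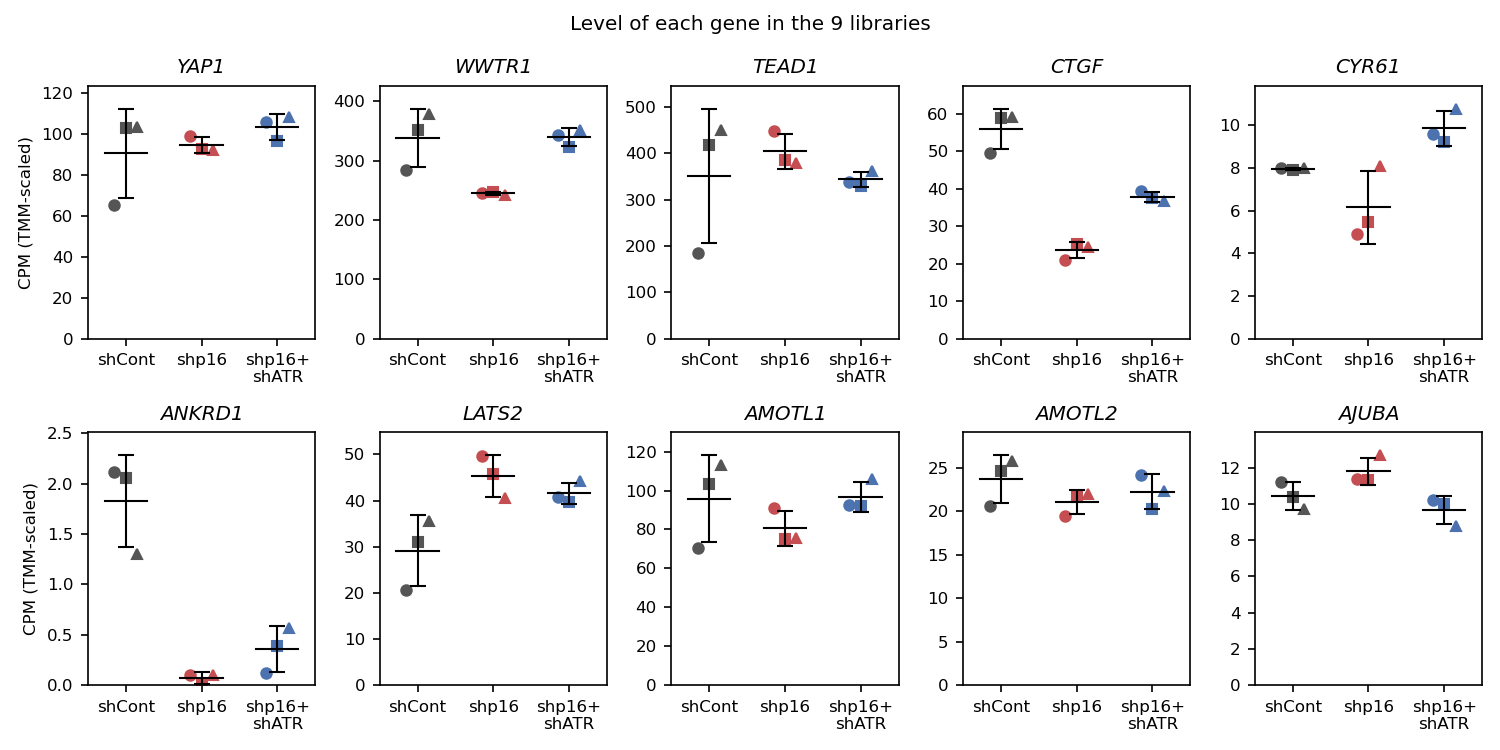
CPM (y axes, each from 0) of the 10 genes in the 9 libraries, by group; circles, squares and triangles are replicates 1, 2 and 3 (a, b and c for shp16+shATR), long bars the mean and error bars the SD. CTGF steps from 49.6 to 59.1 CPM in shCont down to 21.1 to 25.2 in shp16 and back up to 36.7 to 39.3 in shp16+shATR without overlap.

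CTGF encodes a secreted matricellular protein of the CCN family and lies on chromosome 6 at 132269316 to 132272513, minus strand, in the tables' own coordinates. It had 49.6, 58.9 and 59.1 CPM in shCont, 21.1, 25.2 and 24.5 in shp16, and 39.3, 37.5 and 36.7 in shp16+shATR. The 3 groups did not overlap, and shp16+shATR lay between the other groups. The fall from shCont to shp16 was a log2 fold change of -1.24 (SE 0.12, edgeR's quasi-likelihood test, adjusted p = 3.78e-05), a level 0.422 times that of shCont. From shp16 to shp16+shATR it rose by a log2 fold change of 0.68 (SE 0.12, adjusted p = 0.00572), and shp16+shATR remained below shCont by -0.56 (SE 0.11, adjusted p = 0.00416). CTGF was called in all 3 comparisons when any one of the 9 libraries was left out, and without shCont replicate 1 the log2 fold changes were -1.33, 0.68 and -0.65.

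ANKRD1 encodes a nuclear ankyrin repeat protein best known from stretched heart muscle, and lies on chromosome 10 at 92671853 to 92681033, minus strand. It was scarce in these cells, with 48, 40 and 26 counts in the shCont libraries, 2, 0 and 2 in shp16, and 2, 9 and 11 in shp16+shATR. Every shp16 library was far below every shCont library, and shp16+shATR library a was as low in counts as shp16. Summed over libraries, 114 counts stood against 4, a ratio of 27.9 with a 95% exact binomial interval of 10.6 to 104 that covers counting error only. edgeR's fitted log2 fold change was -4.67 (SE 0.66, adjusted p = 7.04e-04), and its size at so few counts depends on the prior count. The 22 counts of shp16+shATR were 5.58 times those of shp16 after scaling (interval 1.90 to 22.3), but the test did not pass (log2 fold change 2.36, SE 0.80, adjusted p = 0.113). Against shCont, shp16+shATR was lower (log2 fold change -2.31, SE 0.50, adjusted p = 0.00622). Leaving out any 1 library changed none of these 3 ANKRD1 calls, and the log2 fold changes without shCont replicate 1 were -4.55, 2.36 and -2.19.

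CYR61, another secreted CCN protein, lies on chromosome 1 at 86046444 to 86049645, plus strand. It had 8.00, 7.91 and 7.99 CPM in shCont, 4.88, 5.45 and 8.09 in shp16, and 9.57, 9.22 and 10.8 in shp16+shATR. In shp16, replicate 3 was as high as the controls and the other libraries were below them, so the groups overlapped. The difference of shp16 from shCont did not pass (log2 fold change -0.37, SE 0.19, edgeR's quasi-likelihood test, adjusted p = 0.203), and without shp16 replicate 3 it did (-0.62, adjusted p = 0.0457). The 3 shp16+shATR libraries were all above the shp16 libraries, and the difference lay just outside the threshold (log2 fold change 0.68, SE 0.18, adjusted p = 0.0513). It passed without shCont replicate 1 (0.68, adjusted p = 0.0157), without shp16 replicate 3 (0.93, adjusted p = 0.0203) and in 8 of 19 alternatives in all. Against shCont, the log2 fold change was 0.31 (SE 0.18, adjusted p = 0.255). Leaving out shCont replicate 1 gave -0.38 for shp16 (adjusted p = 0.182) and 0.30 for shp16+shATR (adjusted p = 0.251) against shCont.

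WWTR1, which encodes TAZ, lies on chromosome 3 at 149235022 to 149454501, minus strand. It had 285, 351 and 379 CPM in shCont, 245, 247 and 242 in shp16, and 344, 323 and 352 in shp16+shATR. The shp16 libraries lay close together below all others, and shCont and shp16+shATR overlapped. WWTR1 fell from shCont to shp16 (log2 fold change -0.47, SE 0.12, edgeR's quasi-likelihood test, adjusted p = 0.0210) and rose from shp16 to shp16+shATR (0.47, SE 0.12, adjusted p = 0.0343), while shp16+shATR differed from shCont by 0.01 (SE 0.12, adjusted p = 0.980). Both calls were close to the threshold, and they held in 13 of 20 and 10 of 19 alternatives. The fall did not pass when shCont replicate 2 or 3 or any shp16 replicate was left out (adjusted p from 0.0516 to 0.0780, log2 fold changes from -0.47 to -0.38), or when only the shCont and shp16 libraries were fitted (adjusted p = 0.0838). The rise did not pass when shCont replicate 2 or any 1 of the shp16 or shp16+shATR libraries was left out (adjusted p from 0.0567 to 0.149, log2 fold changes from 0.44 to 0.51), or with limma on log2(FPKM + 0.1) (adjusted p = 0.0528). Both passed without shCont replicate 1, with -0.58 (adjusted p = 1.75e-04) and 0.47 (adjusted p = 4.60e-04), and shp16+shATR then differed from shCont by -0.11 (adjusted p = 0.292). Other transcripts overlap this gene, the antisense WWTR1-AS1 and WWTR1-IT1, with at most 35 and 37 counts in a library against at least 4716 for WWTR1.

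YAP1, the coactivator paralogous to TAZ, lies on chromosome 11 at 101981192 to 102104154, plus strand. It had 65.4, 103 and 103 CPM in shCont, 99.0, 93.0 and 92.2 in shp16, and 106, 96.5 and 108 in shp16+shATR. Apart from the low shCont replicate 1, the libraries lay between 92.2 and 108 CPM. None of the 3 comparisons passed, with log2 fold changes of 0.07, 0.13 and 0.19 (SE 0.16 each; edgeR's quasi-likelihood test, adjusted p from 0.407 to 0.821). The first of these turned to -0.13 without shCont replicate 1 (adjusted p = 0.242) and the last became 0.0015 (adjusted p = 0.991). Within a library, the FPKM of WWTR1 was 4.08 ± 0.522 times that of YAP1 in shCont (SD, n = 3), where the single libraries had 4.66, 3.65 and 3.93. This ratio was 2.77 ± 0.106 in the shp16 libraries and 3.51 ± 0.0632 with both hairpins.

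TEAD1, the DNA-binding partner, lies on chromosome 11 at 12695969 to 12966298, plus strand. It had 185, 419 and 450 CPM in shCont, 449, 386 and 378 in shp16, and 339, 330 and 362 in shp16+shATR. The shCont libraries spread more widely than either other group, and shp16+shATR lay below shp16 without overlap. No comparison passed, with log2 fold changes of 0.20, -0.23 and -0.03 (SE 0.25 each; edgeR's quasi-likelihood test, adjusted p from 0.632 to 0.946). Without shCont replicate 1 the difference of shp16 from shCont turned to -0.11 (adjusted p = 0.423), and that of shp16+shATR from shCont became -0.34 (SE 0.09) and passed (adjusted p = 0.0133).

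LATS2 encodes 1 of the kinases that phosphorylate YAP and TAZ, and lies on chromosome 13 at 21547171 to 21635686, minus strand. It had 20.6, 31.1 and 35.6 CPM in shCont, 49.6, 45.7 and 40.7 in shp16, and 40.8, 39.8 and 44.1 in shp16+shATR. All libraries with the p16 hairpin were above all shCont libraries, and they overlapped each other. LATS2 rose from shCont to shp16 (log2 fold change 0.64, SE 0.17, edgeR's quasi-likelihood test, adjusted p = 0.0287) and was higher in shp16+shATR than in shCont (0.52, SE 0.17, adjusted p = 0.0492). From shp16 to shp16+shATR the log2 fold change was -0.12 (SE 0.17, adjusted p = 0.758). Without shCont replicate 1, where LATS2 was lowest, the differences from shCont were 0.44 (adjusted p = 0.00873) and 0.31 (adjusted p = 0.0337). The calls held in 11 of 20 and 6 of 19 alternatives. The first was lost without shCont replicate 2, shp16 replicate 1, shp16 replicate 2 or shp16+shATR replicate a (adjusted p from 0.0528 to 0.103, log2 fold changes from 0.57 to 0.69), in a fit of the shCont and shp16 libraries alone (adjusted p = 0.0876) and with limma on log2(FPKM + 1) and log2(FPKM + 0.1) (adjusted p = 0.0545 and 0.0563). The second was lost without shCont replicate 2 or any 1 of the shp16 or shp16+shATR libraries (adjusted p from 0.0607 to 0.15, log2 fold changes from 0.47 to 0.57), in a fit of the shCont and shp16+shATR libraries alone (adjusted p = 0.0913), with scaling by library size only (0.0711), with a filter of 10 counts in every library (0.0503) and with limma at either pseudocount (0.0776 and 0.0783).

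AMOTL1 and AMOTL2 encode angiomotin-like proteins, which bind YAP and hold it at cell junctions and in the cytoplasm. AMOTL1, on chromosome 11 at 94439597 to 94609918, plus strand, had 70.5, 103 and 113 CPM in shCont, 91.1, 75.1 and 75.7 in shp16, and 92.5, 91.9 and 106 in shp16+shATR. With all libraries its log2 fold change in shp16 was -0.25 (SE 0.16, edgeR's quasi-likelihood test, adjusted p = 0.343). It was -0.43 and passed when shCont replicate 1 was left out (adjusted p = 0.00891). With shATR the log2 fold change from shp16 was 0.26 (adjusted p = 0.415) and from shCont 0.02 (adjusted p = 0.958), the latter -0.17 without shCont replicate 1. AMOTL2, on chromosome 3 at 134074716 to 134094321, minus strand, lay between 19.5 and 25.8 CPM in all 9 libraries, and none of its comparisons passed (log2 fold changes -0.17, 0.08 and -0.09). Leaving out shCont replicate 1 gave -0.27, 0.08 and -0.19 for AMOTL2 (edgeR's quasi-likelihood test, adjusted p = 0.0708, 0.595 and 0.176).

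AJUBA encodes a LIM-domain protein that binds and restrains LATS kinases at junctions, and lies on chromosome 14 at 23440383 to 23451851, minus strand. It had 11.2, 10.4 and 9.69 CPM in shCont, 11.4, 11.3 and 12.7 in shp16, and 10.2, 9.996 and 8.76 in shp16+shATR. The shp16 libraries were the highest, without overlap with either other group, but by small amounts. No comparison passed, with log2 fold changes of 0.18, -0.29 and -0.11 (SE 0.13 each; edgeR's quasi-likelihood test, adjusted p from 0.244 to 0.581). When shCont replicate 1 was left out they were 0.23, -0.29 and -0.06 (adjusted p = 0.197, 0.0844 and 0.748). Members whose groups did not overlap in CPM numbered 5, 7 and 4 of 10 in the 3 comparisons, against 33.6%, 37.7% and 41.5% of all tested genes.

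**Figure D3:**
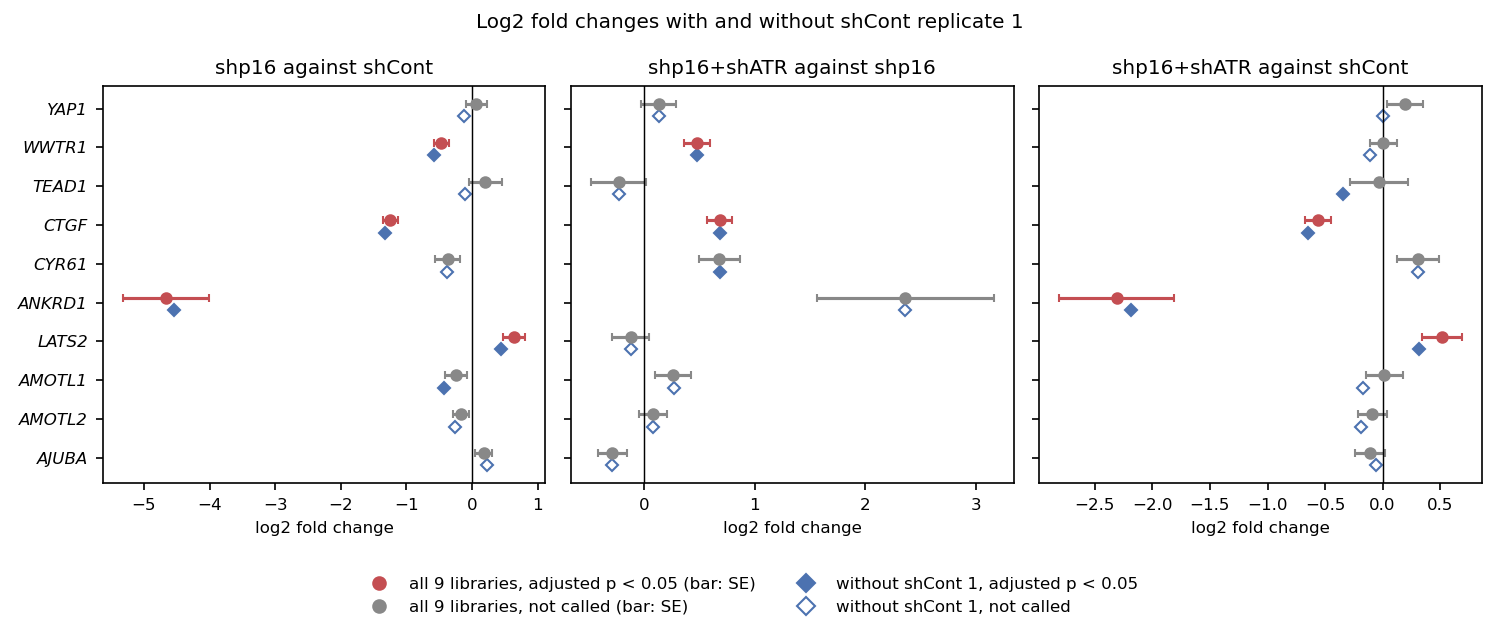
Log2 fold changes (x axes, on a different scale in each panel) of the 10 genes in the 3 comparisons: circles with SE bars use all 9 libraries, red where the adjusted p was under 0.05, and diamonds leave out shCont replicate 1, filled where it was under 0.05. CTGF is called in all panels (-1.24, 0.68 and -0.56), and TEAD1, at -0.03 with all libraries in the right panel, moves to -0.34 without that library.

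FPKM divides counts by gene length and library total, so that levels can be set between genes. WWTR1 had the highest level of the 10 in every group, with 67.6 ± 11.6 FPKM for shCont, 48.5 ± 2.49 for shp16 and 67.5 ± 1.98 for shp16+shATR (SD, n = 3), above 93.6% of the tested genes in its mean over all libraries. TEAD1 came next in each group (37.7 ± 16.3, 42.6 ± 1.83 and 36.4 ± 1.15 FPKM), and in shCont its libraries overlapped those of CTGF. ANKRD1 was the lowest throughout, at 0.922 ± 0.227, 0.0333 ± 0.0288 and 0.179 ± 0.112 FPKM. CTGF changed its place in the order: it ranked 3 in shCont at 24.0 ± 3.16 FPKM, above YAP1 at 16.9 ± 4.59 without overlap, and 4 in shp16 at 10.1 ± 1.41, below YAP1 at 17.5 ± 0.235 and overlapping AMOTL1. In shp16+shATR it ranked 4 again, at 16.2 ± 0.706 FPKM against 19.2 ± 0.898 for YAP1. LATS2 and AMOTL2 overlapped in shCont (5.32 ± 1.54 and 5.25 ± 0.774 FPKM) but not in the other groups, where LATS2 was higher. CYR61 and AJUBA stood near the bottom, at 3.48 ± 0.121 and 2.45 ± 0.135 FPKM in shCont, and overlapped each other in shp16. The other neighbours whose libraries overlapped were YAP1 and AMOTL1 in shCont and AMOTL2 and CYR61 in shp16+shATR.

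**Figure D4:**
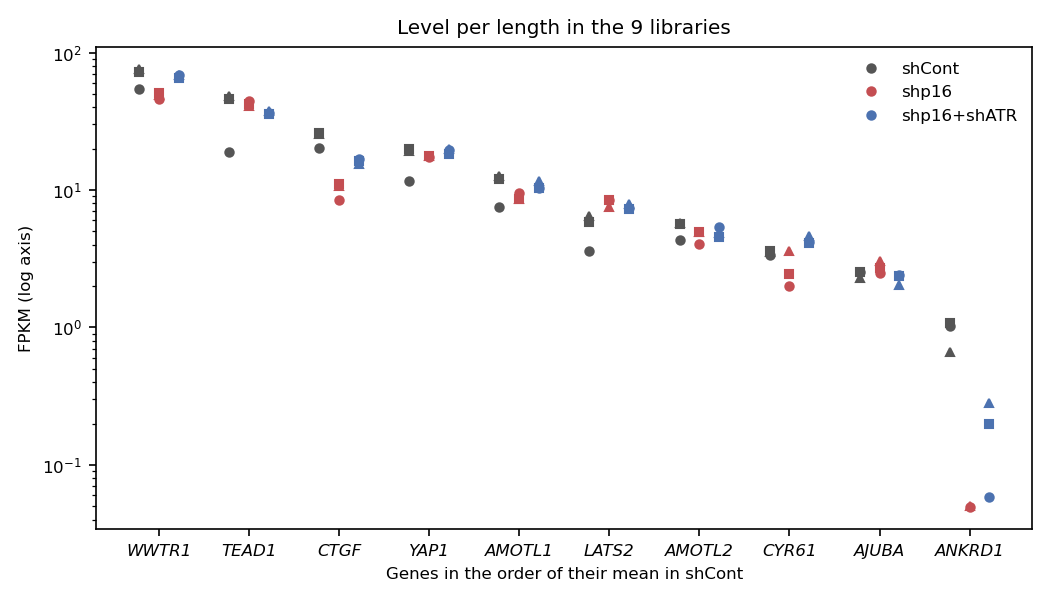
FPKM (log axis) of the 10 genes in the 9 libraries, ordered by their mean in shCont, with 1 point for each library (circles, squares and triangles for replicates 1, 2 and 3); ANKRD1 in shp16 replicate 2 is 0 and not drawn. WWTR1 is highest in each group (means 67.6, 48.5 and 67.5 FPKM), and CTGF drops below YAP1 in shp16 (10.1 against 17.5 FPKM).

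The wider set of YAP and TAZ target genes did not move in 1 direction. Of 22 listed targets, 5 of them members, 21 were tested, and 7 were called in shp16 against shCont, 3 higher and 4 lower, with a median log2 fold change of 0.08, beside 14.8% called and a median of -0.02 over all tested genes. ANKRD1, which passed the filter on low counts through shCont, was 1 of the 4, and of the other 20 targets 6 were called, 3 in each direction. Of the 16 targets that are not members, 4 were called, 2 higher and 2 lower (25%). Leaving out shCont replicate 1 gave 8 of 21 targets (38.1%), 3 higher and 5 lower, beside 25.9% of all genes. The medians were then -0.02 for the targets and -0.01 for all genes. IGFBP3, which encodes a binding protein of insulin-like growth factors, had 39.0, 39.2 and 42.4 CPM in shCont and 14.1, 14.9 and 13.8 in shp16, and fell (log2 fold change -1.49, SE 0.11, edgeR's quasi-likelihood test, adjusted p = 5.66e-06). NT5E, the ecto-enzyme CD73 that makes adenosine, went from 515, 572 and 626 CPM to 262, 261 and 266 (log2 fold change -1.12, SE 0.10, adjusted p = 3.48e-05). CCDC80, a secreted matrix protein, rose from 2.65, 2.98 and 2.80 CPM to 6.23, 7.35 and 6.39 (log2 fold change 1.24, SE 0.17, adjusted p = 5.73e-04). These 3 genes were called in the same directions without shCont replicate 1.

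Unlike CTGF, neither IGFBP3 nor NT5E was called between shp16 and shp16+shATR. IGFBP3 had 12.7, 12.5 and 14.04 CPM in shp16+shATR (log2 fold change from shp16 -0.13) and NT5E 215, 218 and 211 (-0.29). NT5E was called lower there without shCont replicate 1 (-0.29, edgeR's quasi-likelihood test, adjusted p = 0.00651). In that comparison 3 of the 21 targets were called, 2 higher and 1 lower (median 0.08), beside 6.22% of all genes (median 0.00): CTGF, AXL and RBMS3, where AXL and RBMS3 averaged under 5 CPM and are named because the count is small. Without shCont replicate 1, 10 of the 21 were called (47.6%), 6 higher and 4 lower, beside 19.9% of all genes. Against shCont, shp16+shATR cells had 6 targets higher and 6 lower of 21 (57.1%, median 0.14), beside 23.6% of all genes (median -0.02). Without ANKRD1 this was 11 of 20 (55%), and outside the members 9 of 16 (56.2%). Leaving out shCont replicate 1 gave 13 of 21 targets (61.9%), 6 higher and 7 lower, beside 33.3% of all genes. The targets named by the size of their change were CCDC80 (1.55, adjusted p = 7.19e-05), IGFBP3 (-1.62, adjusted p = 2.44e-06), NT5E (-1.41, adjusted p = 4.68e-06) and GADD45A (-0.93, adjusted p = 0.00123), a stress-induced growth arrest gene.

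**Figure D5:**
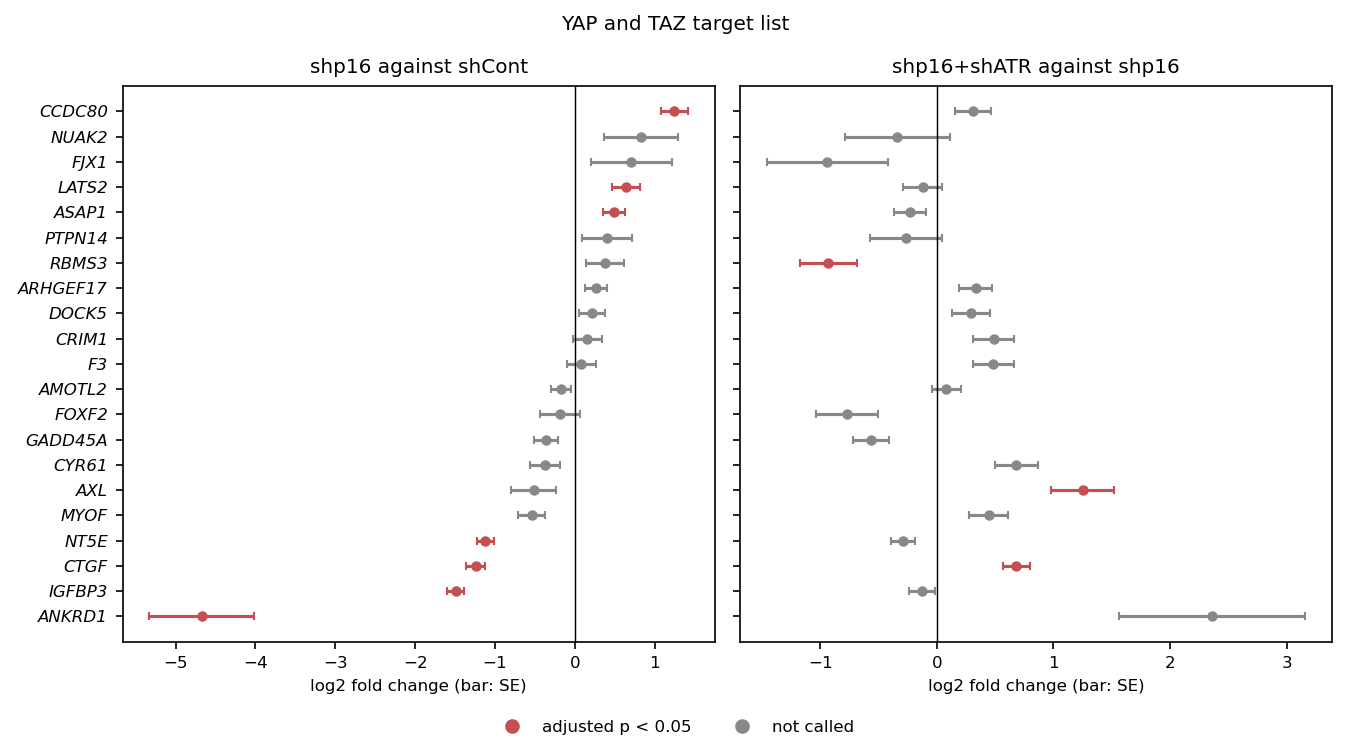
Log2 fold changes with SE bars (x axes) of the 21 tested YAP and TAZ targets in shp16 against shCont (left, which sets the order) and shp16+shATR against shp16 (right), red where the adjusted p was under 0.05; the x axes differ in scale. On the left 3 genes are called higher and 4 lower, from CCDC80 at 1.24 to ANKRD1 at -4.67, and on the right CTGF at 0.68 is 1 of 3 called.

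A list of 38 Hippo genes covered the core, its regulators and the binders of YAP or LATS (angiomotins, LIM proteins and PTPN14). It also covered YAP and TAZ themselves with the TEAD and VGLL factors, and included 7 members. Of these 38, 34 were tested, and 5 were called in shp16 against shCont, 3 higher and 2 lower, which is 14.7% beside 14.8% of all genes (medians 0.23 and -0.02). The median of the list depended on shCont replicate 1, and without that library the medians were 0.03 and -0.01. Outside the members, WWC1, which encodes the LATS-activating scaffold KIBRA, rose from 11.1, 11.5 and 13.2 CPM to 25.6, 19.5 and 20.8 (log2 fold change 0.88, SE 0.14, edgeR's quasi-likelihood test, adjusted p = 0.00142). VGLL4, which competes with YAP for TEAD, rose from 22.6, 32.1 and 35.3 CPM to 41.8, 44.7 and 43.7 (log2 fold change 0.54, SE 0.15, adjusted p = 0.0304; 0.36 without shCont replicate 1, adjusted p = 0.00464). None of the core genes STK3, STK4, SAV1, LATS1, MOB1A and MOB1B was called, with log2 fold changes between -0.07 and 0.31. When shCont replicate 1 was left out, MOB1A (-0.28, adjusted p = 0.00874) and MOB1B (-0.27, adjusted p = 0.0281), which encode LATS coactivators, were called lower.

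With ATR knocked down in addition, 3 of the 34 were called, 1 higher (WWTR1) and 2 lower, 8.82% beside 6.22% of all genes (medians -0.04 and 0.00). NF2, which encodes the pathway's upstream tumor suppressor merlin, fell from 121, 87.3 and 87.1 CPM in shp16 to 53.5, 46.8 and 56.6 in shp16+shATR (log2 fold change -0.91, SE 0.14, edgeR's quasi-likelihood test, adjusted p = 0.00357). LIMD1, a LIM protein related to AJUBA, fell from 160, 149 and 147 CPM to 111, 104 and 105 (log2 fold change -0.51, SE 0.14, adjusted p = 0.0495). shCont had 99.7, 103 and 99.2 CPM of NF2, so that shp16+shATR was lower than shCont as well (-0.94, adjusted p = 6.15e-04). That comparison called 10 of 34, 6 higher and 4 lower, 29.4% beside 23.6% of all genes (medians 0.05 and -0.02), with VGLL4 (0.91, adjusted p = 0.00104), AMOT (0.82, adjusted p = 0.0115) and WWC1 (0.78, adjusted p = 0.00188) higher. Without shCont replicate 1 the counts for the 3 comparisons were 9, 10 and 14 of 34. These are 26.5%, 29.4% and 41.2%, beside 25.9%, 19.9% and 33.3% of all genes.

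Over the 9 libraries and 10728 genes of at least 5 CPM outside the members, the log2 CPM most like that of CTGF were those of GALNT11 (Pearson's r = 0.99), SOX13 (0.99), CYB5D1 (0.98), ERLEC1 (0.98) and SNED1 (0.97). For CYR61 they were MINPP1 (0.96), DNAAF2 (0.92), ARPC5L (0.90), RNFT1 (0.90) and EID1 (0.89), and for ANKRD1 they were PPAP2B (0.96), IL24 (0.95), URGCP (0.95), LYRM1 (0.95) and UBE2D1 (0.95). These are the highest of many values over libraries that share their groups, and they are given as a description.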

How the data were processed

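RNA was sequenced from SKMEL28 cells with NEBNext Ultra 2 libraries made, sequenced and processed by a service provider. The submitters' processing notes name STAR 2.6.1, DESeq2 and GRCh38, but the gene positions in the tables are not those of GRCh38 and correspond to GRCh37. The counting program, the annotation release and the use of strand are not given in the sources used here. The authors deposited whole-number read counts per gene and FPKM values. Each deposited FPKM column was the count divided by gene length and column total, and matched exactly 1 count column within a relative difference of 4.22e-07. The count columns of shp16+shATR carry one repeated name and are called a, b and c.

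Counts were filtered with filterByExpr, scaled by TMM and tested with edgeR 4.0.16 in R 4.3.3 (quasi-likelihood test, all 9 libraries in 1 fit, Benjamini-Hochberg adjustment), giving 15776 genes. SE is the absolute log2 fold change over the square root of F. DESeq2 1.42.0 and limma 3.58.1 on log2(FPKM + 1) and log2(FPKM + 0.1), other scalings and filters, each library left out and the replicate block were alternatives. One more alternative, removal of each library's length trend (spline, 5 degrees of freedom), was chosen after seeing the data. Library totals were 17314662 to 23588174 counts. No 2 libraries of a group agreed within sampling noise (chi-square per gene at least 1.94).

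The members and gene lists were chosen with earlier results of these data known. All members are named. Of the lists, up to 4 called genes a direction and comparison are named, with at least 5 mean CPM and groups that do not overlap. AXL, RBMS3, TEAD2, TEAD3, TEAD4 and the core kinase genes with their adaptors (STK3, STK4, SAV1, LATS1, MOB1A, MOB1B), and genes listed as barely detected, are named outside this rule and were chosen after their values were seen. With 3 libraries against 3, an exact permutation test could not go below p = 0.1 and was not used. Intervals on summed counts cover counting error only.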

Additional observations from a re-analysis of the deposited data

How the results depend on the processing

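The counts of called genes are given in the order members, YAP and TAZ targets, Hippo genes, all genes where several are listed, and the cause of a change was not tested. In shp16 against shCont (4, 7, 5 and 2339 with all libraries), fitting only those groups gave 2 members, 1 Hippo gene and 1186 genes. An adjusted p under 0.01 gave 2, 5, 1 and 994. An absolute log2 fold change of at least 1 gave 2, 5, 1 and 779. Hippo genes numbered 10 with no filter on low counts, 3 with limma at either pseudocount and 8 with the length trend removed. In shp16+shATR against shp16 (2, 3, 3 and 981), fitting only those groups gave 10 targets, 8 Hippo genes and 2878 genes. DESeq2 gave 5 targets and 1508 genes, no filter gave 4 members and 7 targets, limma on log2(FPKM + 0.1) gave 1 member and 1 Hippo gene, and the length trend removed gave 7 targets. An adjusted p under 0.01 gave 1, 1, 1 and 309. An absolute log2 fold change of at least 1 gave 0, 1, 0 and 165. In shp16+shATR against shCont (3, 12, 10 and 3724), the filter of 10 counts in every library, which drops ANKRD1, gave 1 member, and limma on log2(FPKM + 0.1) gave 7 targets. There an adjusted p under 0.01 gave 6 targets, 4 Hippo genes and 1974 genes. An absolute log2 fold change of at least 1 gave 1, 4, 0 and 1178. With 1 library left out at a time, the ranges were 2 to 5, 5 to 8, 1 to 9 and 1344 to 4192 in the first comparison, 1 to 3, 1 to 10, 1 to 10 and 292 to 3223 in the second, and 2 to 4, 7 to 13, 6 to 14 and 2354 to 5395 in the third. The highest values all came without shCont replicate 1.

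With the replicate number as a block (replicate block), edgeR on the shCont and shp16 counts gave 2 members, 0 Hippo genes and 423 genes, where 7 of 34 Hippo genes had an unadjusted p under 0.05. The replicate block in limma on log2(FPKM + 1) gave 2 Hippo genes and 1513 genes in the first comparison, 1, 1, 1 and 481 in the second, and 6 Hippo genes in the third. For WWTR1 the adjusted p with the block was 0.157 in edgeR for the first comparison and 0.0681 in limma for the second, and for LATS2 it was 0.192 in edgeR and 0.0763 in limma for the first and 0.0955 in limma for the third. Correlations of same-numbered libraries ran from -0.30 to 0.29, and 2 of 9 libraries correlated best with their own number in both other groups. These values did not show a pairing by number. They cannot exclude one, as shCont replicate 1 and shp16 replicate 1 stood apart from their groups.

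Of the log2 fold changes of single members, 16 values under alternatives had the opposite sign, all of them of members not called in that comparison. In shp16 against shCont these were YAP1 (-0.13) and TEAD1 (-0.11) without shCont replicate 1, where leaving out 1 library at a time gave -0.13 to 0.17 and -0.11 to 0.42. In shp16+shATR against shCont, WWTR1 gave -0.013 with upper-quartile scaling, -0.0026 with library size only and -0.033 with the length trend removed, and -0.11 to 0.094 with 1 library left out. TEAD1 gave 0.064 with limma on log2(FPKM + 1), with and without the replicate block, 0.069 on log2(FPKM + 0.1), and -0.34 to 0.19 with 1 library left out. AMOTL1 gave -0.00057 with upper-quartile scaling, -0.11 with the length trend removed and -0.17 to 0.15 with 1 library left out. Counting error limits ANKRD1 most, with 4 counts in all of shp16.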

Other observations

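Part of the TEAD machinery was near the floor in these cells. The TEAD cofactor genes VGLL1, VGLL2 and VGLL3 had at most 0, 2 and 3 counts in a library and were not tested, so that VGLL4 was the VGLL gene tested. FAT4, an atypical cadherin upstream of the Hippo kinases, had at most 2 counts, and TGFB2, a growth factor gene on the target list, at most 10. Of the other TEAD factors, which were chosen after their values were seen, TEAD4 had 40.7, 29.7 and 29.2 CPM in shCont, 32.3, 27.1 and 27.6 in shp16 and 22.3, 21.6 and 24.3 in shp16+shATR. It was called lower in shp16+shATR than in shCont (log2 fold change -0.55, SE 0.14, edgeR's quasi-likelihood test, adjusted p = 0.0175; -0.38 without shCont replicate 1, adjusted p = 0.0132). TEAD3, at 3.43 to 7.86 CPM, was also called lower in that comparison (log2 fold change -0.73, SE 0.19, adjusted p = 0.0162; -0.58 without shCont replicate 1, adjusted p = 0.0254). TEAD2, at 3.59 to 6.92 CPM, was not called lower there (log2 fold change 0.16, adjusted p = 0.619). In shp16 against shCont it was higher without being called (0.57, SE 0.20, edgeR's quasi-likelihood test, adjusted p = 0.0763). With shCont replicate 1 left out, TEAD2 was called higher in shp16 (0.63, adjusted p = 0.0467).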
